A study of Phalaenopsis x intermedia with 4 samples.

Results

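In the F1 family P. Intermedia, 630 SNPs were heterozygous in the parent P. aphrodite (Pa) and homozygous in the parent P. equestris (Pe). They were chosen by these parental calls from 115866 entries of the genotype table. An SNP was kept if it had exactly 2 base alleles, lay on chromosome 1 or on chromosomes 3 to 19, and was missing in at most 20% of the 92 plant columns. These limits left 4088 SNPs, of which the 630 were 15.4%. Among the rest, 951 were heterozygous only in Pe, 15 were heterozygous in both parents, 1739 were fixed differences between the parents, 584 were homozygous for the same allele in both, and 169 lacked a parental call. The columns held 90 progeny, named PaPe with a number, and the 2 parents. All DNA came from leaves, and no plant was sampled more than once in the table. Genotyping by sequencing (GBS), which reads the ends of restriction fragments, was done in 4 multiplexed libraries cut with Hinp1I or ApeK1, each with HaeIII, on plates 1 and 2. The table merges the libraries and holds 1 letter per plant and SNP without its read depth, which therefore cannot be given.

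A plant receives 1 copy of each chromosome from each parent. Where only Pa carries both alleles, each progeny gets the Pe allele from Pe and either allele from Pa. A progeny is therefore predicted to be either homozygous like Pe or heterozygous, in equal numbers, and each such SNP reads a single meiosis, that of Pa. One more class, homozygous for the allele that Pe lacks, has no place in the cross if all 3 calls are right, and is named disallowed here. Chromosomes that pass through the same meiosis carry neighbouring SNPs together, so that SNPs close to each other segregate together until a crossover separates them.

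The 630 SNPs lay on 17 chromosomes. Chromosome 1 held 193, chromosome 5 held 74, chromosome 14 held 65, and chromosome 13 held 3, whereas chromosome 19 held 0. Within 1 kb of each other they formed 400 clusters, of which 263 were single SNPs and the largest had 8. In 380 of the SNPs (60.3%) the alleles differed by a transition (A/G or C/T), compared with 58.9% of SNPs heterozygous only in Pe and 57.8% of all 4088. None of the 10 trait-associated SNPs of the study was among them (0 of 10), whereas 5 of the 10 were heterozygous only in Pe. An associated SNP on chromosome 2 was left out beforehand by the choice of chromosomes. The whole table had 115866 entries, of which the 630 are a small part. The 0 of 10 is therefore no sign of a lack of associated SNPs. Positions refer to the chromosomes of the deposited table, of a build that no source used here names, and genes at the SNPs were not annotated here.

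The predicted pair of classes was not what most SNPs showed. Per SNP a median of 49 progeny were homozygous like Pe (middle 50% of SNPs 42 to 54), 16.5 were heterozygous (8 to 29) and 10 were disallowed (5 to 19), of a median of 81 called. The counts ranged from 3 to 82 for the Pe-like class, from 0 to 87 for heterozygotes and from 0 to 59 for disallowed homozygotes. Over all 51171 progeny calls, 59.7% were Pe-like, 23.9% heterozygous and 16.4% disallowed. The 2 most frequent classes were the predicted pair at 378 SNPs, but were the opposite homozygotes at 248. At 249 SNPs disallowed homozygotes outnumbered heterozygotes, at 48 no progeny was heterozygous, and at only 26 was no progeny disallowed.

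**Figure D1:**
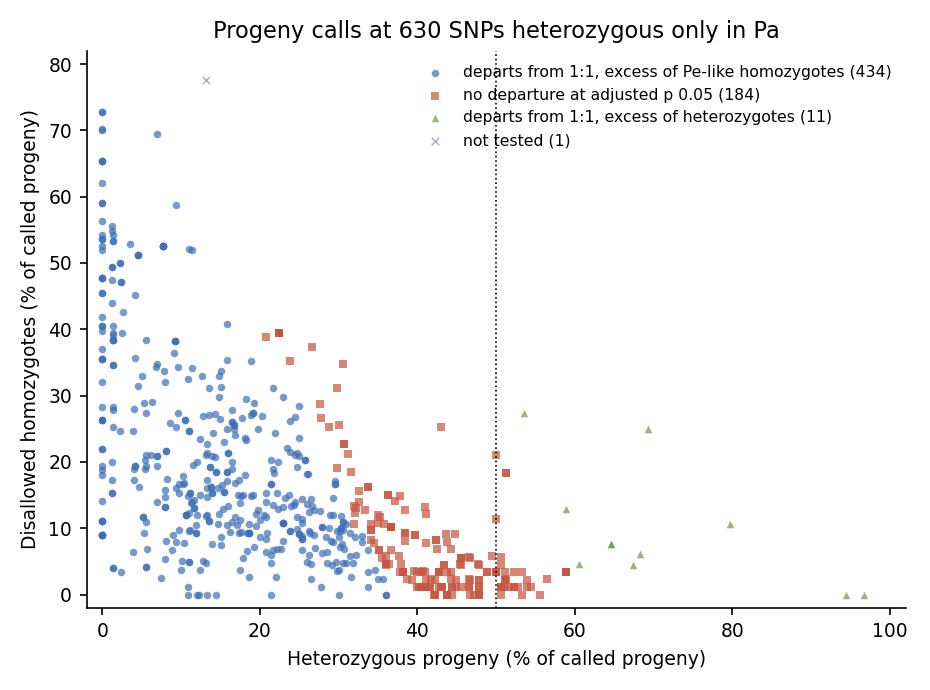
Each point is 1 of the 630 SNPs, with heterozygous progeny on the x axis and disallowed homozygotes on the y axis, both as a percentage of called progeny. Colours and shapes give the result of the 1:1 test, and the dotted line marks 50%. The 434 SNPs with an excess of Pe-like homozygotes lie left of that line, and the SNPs near it mostly have few disallowed calls.

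Of the SNPs without a disallowed call, several had Pe-like and heterozygous progeny in nearly equal numbers. S1_13360327 (G/A, chromosome 1) had 47 Pe-like and 43 heterozygous progeny of 90. S4_60768706 (T/A, chromosome 4) had 48 and 42, S9_23263723 (G/T, chromosome 9) had 40 and 50, S7_28803399 had 42 and 48, and S16_10240912 had 47 and 43. None of these 5 departed from 1:1, with adjusted p of 0.456 or more (exact binomial test, two-sided). They were named as nearest to 1:1 among such SNPs of their chromosome with fewest missing calls. The result thus follows in part from the choice and is no support for 1:1. Others were complete and free of disallowed calls yet far from 1:1. S6_13548468 had 63 Pe-like and 27 heterozygous progeny (exact binomial, adjusted p = 0.00061), and S10_16078177 had 78 and 12 (adjusted p = 1.74e-11). SNPs without disallowed calls thus occurred both with and without equal classes.

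Heterozygotes against Pe-like homozygotes were tested at each SNP with an exact two-sided binomial test. P-values were adjusted over the 24489 SNPs of the whole table that have 1 heterozygous parent and at least 20 progeny in these classes. Of 629 SNPs tested, 445 (70.7%) departed from 1:1, beside 52.2% of all SNPs tested. An excess of Pe-like homozygotes was found at 434 (69.0%), beside 38.1% of all, and an excess of heterozygotes at 11 (1.75%), beside 14.1%. Of the SNPs heterozygous only in Pe under the same limits, 688 of 951 (72.3%) departed. With only the 60 progeny that had calls at most SNPs of the table, 399 of 624 (63.9%) departed, and with only the 30 that had few calls, 96 of 373 (25.7%). Among Pa-heterozygous SNPs missing in more plants, which were not chosen, 47.9% departed, and 12.2% had an excess of heterozygotes. Fewer plants were tested there, with a median of 59 called progeny against 81 at the 630 SNPs. The part of this in the lower share was not tested. The 41 SNPs just inside the limit on missing calls, missing in 18 columns, had medians of 52 Pe-like, 7 heterozygous and 14 disallowed progeny, and the 25 just outside it, missing in 19, had 45, 3 and 19.

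The strongest excess of Pe-like homozygotes was at SNPs with no heterozygote at all. S1_231550695 and S12_25016486 each had 81 Pe-like, 0 heterozygous and 8 disallowed progeny (exact binomial test, both adjusted p = 1.84e-21). The 8 disallowed plants were not the same at both, since all 8 at each SNP were Pe-like at the other. S5_25408130 had 73, 0 and 12 progeny in the same order, and S10_9030051 had 65, 0 and 15. The 11 SNPs with an excess of heterozygotes lay on chromosomes 1, 7, 8, 14, 15 and 17. S1_117212458 had 3 Pe-like and 87 heterozygous progeny (exact binomial test, adjusted p = 2.73e-19), so that nearly all plants had both alleles. S7_13805143 had 5 Pe-like, 61 heterozygous and 22 disallowed progeny, S14_20078187 had 21, 56 and 5, and S8_28839928 had 25, 60 and 4. Disallowed homozygotes were most frequent at S1_25721732, with 59 beside 7 Pe-like and 10 heterozygous progeny, which left too few in the predicted classes to test. They were also the largest class at S7_14148210 (24 Pe-like, 0 heterozygous, 56 disallowed), S10_20662303 (21, 0 and 56) and S17_8818764 (22, 0 and 52).

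Departure from 1:1 was more frequent at SNPs with more disallowed calls. The test leaves these calls out, so the grouping and the test's outcome are not independent. Of the 151 SNPs with disallowed calls in at most 5% of progeny, 47 (31.1%) departed, and their median heterozygous share of the predicted classes was 42.4%. With disallowed calls in 5 to 25% of progeny, 269 of 333 (80.8%) departed, and with more than 25%, 129 of 145 (89.0%). When disallowed homozygotes were instead counted with heterozygotes as carriers of the Pa-only allele, 273 of 630 SNPs (43.3%) departed, beside 43.7% of all SNPs tested so. Of these, 246 had too few carriers and 27 too many, and the median share of carriers was 40.8%. SNPs with over 25% disallowed calls were then nearest to equal classes, with a median of 47.8% carriers and 34 of 146 departing. They were grouped by the same calls that this count adds, so a rise in their carriers was fixed by the grouping. Their 3 examples with 0 heterozygotes reversed under this count, from none heterozygous to 70.0%, 72.7% and 70.3% carriers. These had been picked for the most disallowed calls, so their reversal follows from the choice.

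By chromosome, each plant's heterozygous share of the predicted classes was averaged and set against 50% with a sign-flip permutation test over the 90 plants (73 on chromosome 13, where the others had no call of these classes). The mean share was below 50% on all 17 chromosomes (mean 28.5% ± 8.16, SD over chromosomes). It ranged from 5.48% ± 20.8 (SD, n = 73) on chromosome 13, with 3 SNPs, to 40.5% ± 24.8 (SD, n = 90) on chromosome 17, with 7 SNPs. On chromosome 1 it was 25.1% ± 5.66, and all 90 plants lay below 50%. All 17 differed from 50% (adjusted p of 1.03e-05 except on chromosome 17, the smallest p before adjustment that 100000 sign flips can give being 1e-05), as did 100% of the 35 chromosome means of both SNP classes, so no chromosome stood out by this test. Over the 17 chromosomes the mean lay 23.1 points below 50% in plants with most calls and 17.8 points below in plants with few. Counting disallowed homozygotes as carriers brought the shares closer together, from 31.2% on chromosome 6 to 53.8% on chromosome 17. In this count 15 of 17 chromosomes still passed the test, chromosomes 13 and 17 did not (adjusted p of 0.115 and 0.124), and chromosome 17 moved above 50%. Disallowed homozygotes made up 6.89% ± 10.8 (SD, n = 90 plants) of calls on chromosome 11, 18.1% ± 4.27 on chromosome 1 and 39.3% ± 40.5 on chromosome 13.

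**Figure D2:**
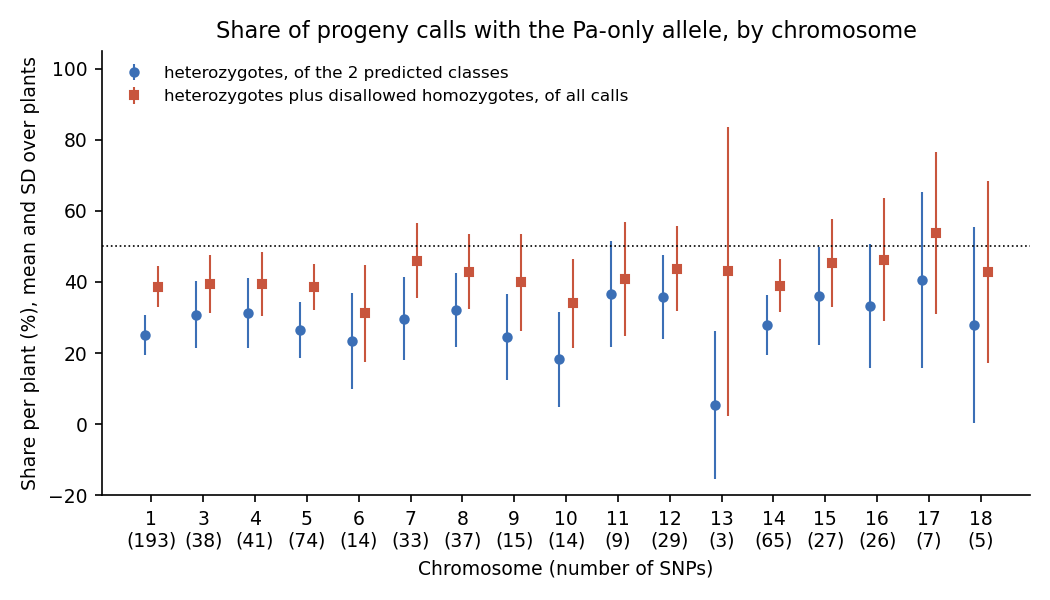
For each chromosome, circles give the heterozygous share of the predicted classes and squares the share of carriers of the Pa-only allele, as the mean and SD of 90 plants (73 for the circle of chromosome 13), with the number of SNPs in brackets. The dotted line marks 50%. Circles lie below it on all 17 chromosomes, and squares are higher than circles on each, reaching 53.8% on chromosome 17.

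All 90 progeny had disallowed calls at these SNPs. Their share was 16.6% ± 2.29 (SD, n = 90), from 11.3% in PaPe64 to 23.7% in PaPe93. The heterozygous share varied more, from 12.5% in PaPe32 to 38.8% in PaPe18 (23.7% ± 4.87). PaPe52, PaPe63, PaPe76 and PaPe89, which stood apart in earlier results, had disallowed shares of 14.8%, 16.4%, 17.1% and 15.7%, near the mean of all plants. Any pair of plants shared a median of 50.5% of calls at these SNPs, and the most alike pair, PaPe13 and PaPe26, shared 67.1%. In the same plants the disallowed share was higher at SNPs heterozygous only in Pe (18.6% ± 2.24). The difference, Pa class minus Pe class, was -2.04 percentage points (SD 2.48), and it was below 0 in 72 of 90 plants (paired sign-flip permutation test over plants, p = 1e-05, the smallest it can give).

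The progeny fell into 60 with calls at most SNPs of the table and 30 with few. The difference in disallowed calls between the Pa and the Pe class was -2.49 points in the first (below 0 in 50 of 60) and -1.12 in the second (below 0 in 22 of 30), with permutation p of 1e-05 and 0.017. With a limit of 10% on missing calls it was -4.02 points over all plants. At the 630 SNPs the plants with few calls had 57.5% ± 4.02 Pe-like calls against 60.8% ± 3.70 (permutation test, adjusted p = 0.0008) and 25.5% ± 5.06 heterozygous calls against 22.8% ± 4.56 (adjusted p = 0.018). Disallowed shares were 17.0% ± 2.47 and 16.4% ± 2.18, a difference within the spread of plants (permutation test, adjusted p = 0.226). The table does not tell which library gave a call, so enzyme pair and plate could not be separated.

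**Figure D3:**
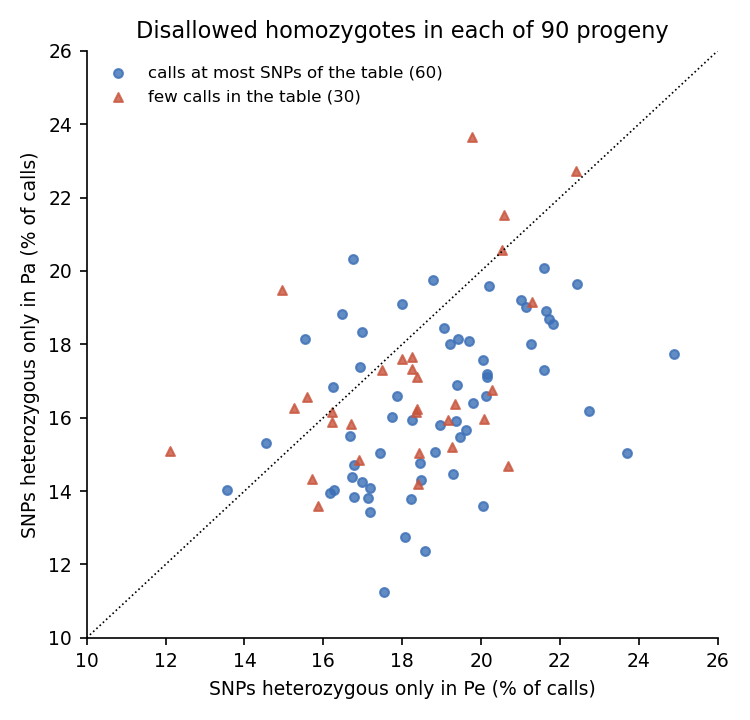
Each point is 1 of 90 progeny, with disallowed homozygotes as a percentage of its calls at SNPs heterozygous only in Pe (x axis) and only in Pa (y axis). Circles are the 60 plants with calls at most SNPs and triangles the 30 with few. Equal shares lie on the dotted line, and 72 plants lie below it.

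Although single SNPs were far from 1:1, neighbours were more correlated than SNPs on different chromosomes, but mostly weakly. Linkage was measured between heterozygous and Pe-like calls at pairs of SNPs over 1 kb apart, with 1 SNP per kb and at least 40 plants in a predicted class at both. The squared correlation r2, which runs from 0 to 1, had a mean of 0.262 at 1 to 100 kb, 0.205 at 100 kb to 1 Mb, 0.083 at 1 to 5 Mb and 0.030 at 5 to 20 Mb. Pairs on different chromosomes had 0.021. Medians of r2 were lower, 0.216 at 1 to 100 kb, 0.078 at 100 kb to 1 Mb and 0.009 on different chromosomes. The median recombination fraction, the share of plants recombinant in the better phase, was 0.271 up to 1 Mb and 0.414 on different chromosomes. Up to 1 Mb the mean was 0.214, and 0.256 with only the 60 plants that had most calls. Between an SNP of the Pa class and one of the Pe class, which read different meioses, mean r2 was 0.025 up to 1 Mb and 0.019 on different chromosomes, so that closeness on the chromosome made little difference there. Pairs of the Pe class were like those of the Pa class, with 0.241 against 0.214 up to 1 Mb. Up to 1 Mb, 125 of 301 pairs of the Pa class (41.5%) passed a LOD of 4, the log10 odds of linkage against free recombination, beside 5.63% of 53905 pairs on different chromosomes. For 1 SNP of each class, 27 of 700 pairs up to 1 Mb (3.86%) and 4.49% of pairs on different chromosomes did.

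The LOD of 4 was also passed by pairs with no correlation at all. S1_11253799 and S5_33336624 reached a LOD of 17.1 with an r2 of 0.00021, since at both nearly all plants were in 1 class. An association LOD, computed from r2 and the number of plants and added after the data had been seen, allows for unequal classes. By it, 29.2% of pairs of the Pa class up to 1 Mb and 0.254% of those on different chromosomes passed 4. None of the 700 pairs of 1 SNP of each class did (0 of 700), compared with the 27 above.

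**Figure D4:**
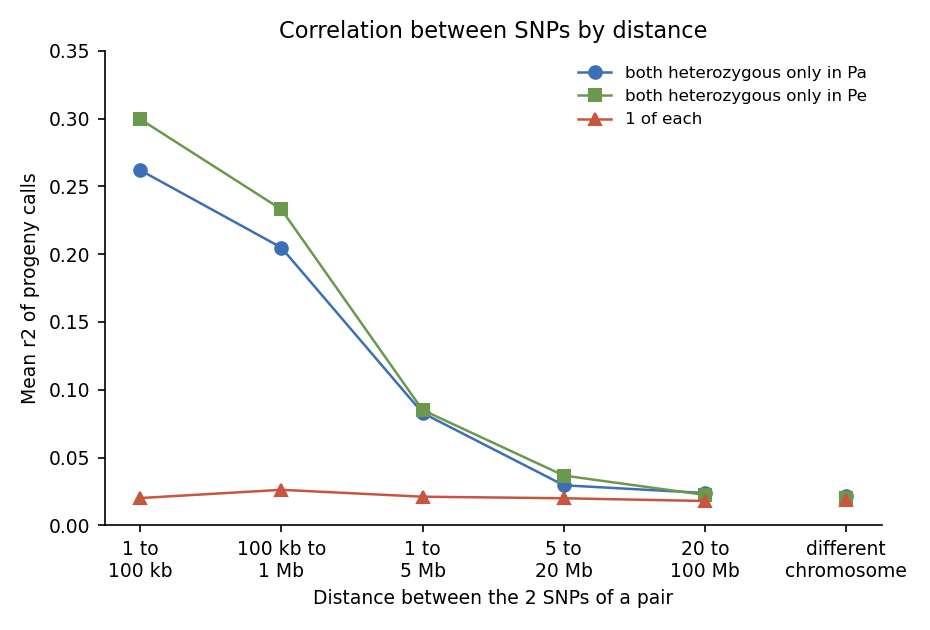
Mean r2 between progeny calls at pairs of SNPs, by distance along a chromosome and, at the right, for different chromosomes. Circles are pairs heterozygous only in Pa, squares only in Pe, and triangles 1 of each. Pa pairs drop from 0.262 at 1 to 100 kb to 0.021 between chromosomes, whereas pairs of 1 of each stay near 0.02 at all distances.

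Pairs on 1 chromosome, picked for display after their values were seen, show what this means in plants. At S8_27384408 and S8_27417452, 33 kb apart, 46 plants were Pe-like at the first and heterozygous at the second and 37 the reverse, against 3 Pe-like at both and 0 heterozygous at both (r2 = 0.868). The Pa-only alleles of these SNPs were in repulsion, inherited instead of each other. At S1_109429631 and S1_109708234, 279 kb apart, 44 plants were Pe-like at both and 36 heterozygous at both, against 4 that differed within these classes, so that these alleles were in coupling.

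Disallowed calls followed the same pattern as heterozygotes. S1_109488269, which lies between the pair just described, had 47 Pe-like, 1 heterozygous and 30 disallowed progeny. Of the 43 plants that were Pe-like at S1_109429631 and called here, 42 were Pe-like here and 1 was disallowed, whereas of 34 that were heterozygous there, 29 were disallowed, 1 was heterozygous and 4 were Pe-like. For a count over all members, each SNP was paired with its best partner over 1 kb and up to 5 Mb away with an r2 of at least 0.2, which 193 SNPs had. Disallowed calls were not used to choose it. The partner was in the state that goes with a heterozygote at 17.3% of 8290 Pe-like calls and 89.4% of 4038 heterozygous calls, shares that the choice of partner fixes. At 1498 disallowed calls it was in that state 81.2% of the time (1217 calls), beside 45.3% over all calls. Per plant the share was 81.6% ± 12.1 (SD, n = 90), and at 132 of the 149 SNPs with at least 3 such calls it was over 50%. It was 79.7% in plants with most calls and 85.1% in those with few, an order that turned to 84.5% (557 of 659) and 77.0% (308 of 400) when partners were chosen within each set of plants. At SNPs with disallowed calls in at most 5%, in 5 to 25% and in over 25% of progeny it was 85.2%, 82.4% and 78.1%. With an r2 of at least 0.5, it was 84.4% (437 of 518 calls, 82 SNPs) for partners up to 5 Mb away. For partners on a different chromosome at that r2 it was 85.0% (341 of 401 calls, 55 SNPs). The pattern was thus not particular to neighbours.

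**Figure D5:**
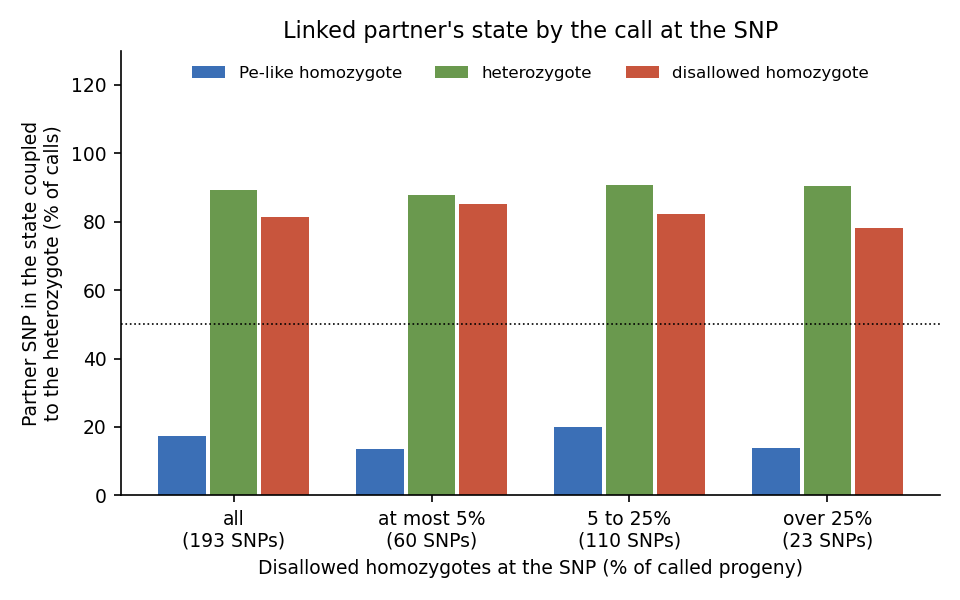
Bars give how often the linked partner SNP was in the state that goes with a heterozygote, for Pe-like, heterozygous and disallowed calls, over all 193 SNPs and by the SNP's share of disallowed calls. Values are percentages of calls, and the dotted line marks 50%. Disallowed calls stand at 78.1% to 85.2%, nearer to the heterozygotes than to the Pe-like homozygotes.

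With disallowed homozygotes counted with heterozygotes, more plants entered each pair, a mean of 76.2 instead of 59.3 up to 1 Mb and 75.7 instead of 59.0 on different chromosomes. On the same 301 pairs up to 1 Mb, mean r2 went from 0.214 to 0.249 and was higher for 210 pairs and lower for 91. On the same 53905 pairs of different chromosomes it went from 0.0214 to 0.0171, and the part of the number of plants in these differences was not tested. Pairs of SNPs that both had over 25% disallowed calls had a mean r2 of 0.346 up to 1 Mb (18 pairs) and 0.018 on different chromosomes. With SNPs of the Pe class up to 1 Mb, these same SNPs had 0.015 (218 pairs). Pairs with at most 5% disallowed calls had 0.480 (18 pairs), and those with 5 to 25% had 0.169 (120 pairs). Of the 48 SNPs without any heterozygote, 30 remained at 1 per kb, and for 19 (63.3%) the most correlated SNP of the class was on the same chromosome.

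The chromosome of the best partner was not always that of the SNP. Of 374 SNPs at 1 per kb with a partner in the predicted classes, 189 (50.5%) had their highest r2 on their own chromosome, where 12.5% of the candidates lay. Where that r2 was at least 0.5, 94 of 135 (69.6%) did. The other 41 had such a partner elsewhere, and 13 pairs of SNPs were each other's best partner. A best partner on the same chromosome was not always near, although the median distance was 1100 kb. S1_8935959 and S1_150218183 lay 141282 kb apart with an r2 of 1, and had only 1 and 2 heterozygous progeny. Chromosome 1 held 103 of the 374 SNPs, 62 with their best partner there, while the 12.5% of candidates is over all chromosomes. On chromosomes 6, 10, 13 and 18 no SNP had its best partner on its own chromosome (0 of 7, 8, 2 and 5). S1_66384257 and S9_23263723 had the highest LOD of different chromosomes, 19.7 with an r2 of 0.827. Of 89 plants, 49 were Pe-like at the first and heterozygous at the second and 36 the reverse, and 4 were the same at both. S4_20580735 and S10_12055365 (LOD 18.6, r2 = 0.816) and S3_1581048 and S4_60768706 (LOD 17.2, r2 = 0.749) had the alleles together, with 49 and 44 plants Pe-like at both and 32 and 39 heterozygous at both. The highest r2 was 0.869, between S14_2648312 and S18_4128993, but it was 0.605 with disallowed homozygotes counted as carriers. Among plants disallowed at S18_4128993, 7 were Pe-like and 10 heterozygous at S14_2648312. Counted so, the pairs named before it had an r2 of 0.829, 0.824 and 0.752. Within plants of most and of few calls, r2 of the first pair was 0.869 and 0.752, and that of the S3 and S4 pair 0.871 and 0.583. Several of these SNPs, such as S9_23263723 and S4_60768706, had no disallowed call and near 1:1 classes.

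Since an allele found only in Pa may lie on either Pa chromosome, linked SNPs in both phases can tell which chromosome a plant received. In a group of 1 phase the count of plants instead follows the share of heterozygotes or carriers. With the 151 SNPs of at most 5% disallowed calls joined at a LOD of 4, only 2 groups of at least 5 SNPs formed. On chromosome 1 the haplotypes went to 36 and 49 plants (exact binomial test, adjusted p = 0.231), and on chromosome 5 to 16 and 66 (adjusted p = 6.76e-08). These groups spanned 213759 and 33063 kb, and plants carried their more frequent haplotype at a mean of 68.1% and 74.9% of the SNPs. On chromosome 5 the median heterozygous share was low in both phases, 17.0% (4 SNPs) and 19.2% (1 SNP). Both groups were joined by the LOD that SNPs with unequal classes can pass without correlation. Of the 6 groups of both meioses, 33.3% departed. With the association LOD no group of the Pa class remained. This LOD with disallowed homozygotes counted as carriers was an alternative added after the data had been seen. By it, 196 SNPs fell into 23 groups on 11 chromosomes. Plants carried their more frequent haplotype at a median of 85.3% of a group's SNPs. Phases were fitted to these same calls, and each plant was scored against its own majority. This share therefore cannot fall below 50%, and its value without linkage was not computed. None of the 23 departed from 1:1 (0% of 56 groups of both meioses), and 1 had an exact binomial p under 0.05 before adjustment. In groups of both phases a lack of carriers favours opposite haplotypes in the 2 phases. These counts therefore cannot tell whether carriers were lacking. On chromosome 1, the 5 SNPs from 109429631 to 110326363, all in 1 phase, gave 41 and 49 plants (exact binomial p = 0.461). Their shares of carriers, from which these haplotypes were read, ran from 37.5% to 48.9%. Heterozygous shares of the predicted classes ran from 2.08% to 47.7%. On chromosome 4, 5 SNPs from 17416300 to 19394156, also all in 1 phase, gave 37 and 52 (exact binomial p = 0.137). The lowest p was on chromosome 8 between 23660410 and 30790897, with 29 and 54 plants (exact binomial p = 0.008, adjusted p = 0.124). There the 3 SNPs of 1 phase had heterozygous shares of 52.3% to 70.6% and the 5 of the other phase 13.6% to 42.0%. Some groups spanned more than 100 Mb of chromosome 1, and their order was not tested. Groups there lay across each other, such as those at 5996325 to 203500361, 32745865 to 150918043 and 38563611 to 165635336. Groups also overlapped on chromosomes 3, 5 and 14. The 23 groups are therefore not 23 separate stretches of Pa chromosomes.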

How the data were processed

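The authors mapped reads with Bowtie 2, called SNPs with TASSEL-GBS and deposited a table of genotype letters with both enzyme pairs merged, 1 column per plant. These letters have no unit of measurement. The label of the table names an imputation by nearest neighbours and a filter on minor allele frequency (0.05), and which calls were imputed is unknown. At the 630 SNPs 9.75% of progeny calls were missing. No depth was given, so no limit from depth could be computed, and 0 columns of unknown identity were used.

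Calls were coded as Pe-like, heterozygous or disallowed. The members, lists and tests were chosen with earlier results of these data known. The SNPs named are those with the lowest p in each direction (up to 4, 1 per chromosome), with the most disallowed calls (4), on each chromosome without disallowed calls (fewest missing calls, then nearest to 1:1), and the pairs of different chromosomes with the highest LOD. The pairs on 1 chromosome, S14_2648312 with S18_4128993, and the SNPs of haplotype groups were named after their values were seen. P-values were adjusted by the Benjamini-Hochberg method. Plants are single individuals. Permutation p-values measure the spread between plants at the SNPs used, and exact binomial p-values compare counts of plants with 1:1. SNPs of a fragment are not independent, so counts of SNPs are not counts of loci. Steps were tested on simulated data. Alternatives concerned the progeny used, missing calls, SNP density, allele frequency, chromosome 2, disallowed calls and the LOD. Traits and the study's map were not used. Tests ran in scipy 1.17.1, with pandas 2.3.3 and numpy 2.4.6 under Python 3.11.15.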

Additional observations from a re-analysis of the deposited data

Results flagged for a closer look

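The heterozygous share of the predicted classes at SNPs heterozygous only in Pa was 30.6% ± 5.56 (SD, n = 30) in progeny with few calls and 27.2% ± 5.06 (SD, n = 60) in progeny with most calls. It was singled out because the groups of plants differed by 3.37 percentage points (permutation test over plants, adjusted p = 0.0093), while both lay below 50%. The plants with few calls were called at a mean of 517 of the 630 SNPs and the others at 594, and the part of this in the result was not tested.

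The lower share of disallowed homozygotes at Pa-heterozygous than at Pe-heterozygous SNPs was smaller in progeny with few calls (-1.12 points) than in those with most calls (-2.49 points). The 2 sets of plants differed by 1.37 points (permutation test over plants, p = 0.012, not adjusted).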

How the results depend on the processing

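Between libraries, no paired analysis was possible because the plates that share numbers are merged in 1 table with 1 column per plant. The share of SNPs departing from 1:1 was 70.7%, and it moved to 25.7% (96 of 373) with only the 30 progeny with few calls, to 43.3% with disallowed homozygotes counted as carriers and to 31.1% with only members of at most 5% disallowed calls. Fewer plants are tested in the first of these. Under the other 7 alternatives it lay between 51.6% (missing in at most 10% of columns) and 72.8%. Averaged over chromosomes, the heterozygous share stayed below 50% in every alternative, by 8.55 to 23.1 percentage points (16 of 17 chromosomes with carriers, chromosome 17 being above), with at least 15 chromosomes past the test. The difference in disallowed calls stayed below 0 in all 8 alternatives, from -4.02 (missing in at most 10%) to -1.12 points. The share of pairs up to 1 Mb linked rose from 41.5% to 83.3% and mean r2 from 0.214 to 0.483 with only members of at most 5% disallowed calls (20 pairs linked), the cause of which was not tested. Over the remaining alternatives the linked share ran from 28.2% to 48.5%. The number of Pa haplotype groups past the test went from 1 to 0 at a LOD of 6, where no group formed, to 0 with the association LOD, where none formed, and to 0 of 23 with this LOD and carriers. Counted as carriers, the shares at S7_14148210, S10_20662303 and S17_8818764 went from 0% to 70.0%, 72.7% and 70.3%. Of 73 values of named SNPs under alternatives, 62 kept their direction and side of the threshold. The partner's state at disallowed calls (all alternatives added after seeing the data) ran from 77.0% to 85.2%. Precision is limited by the unknown depth of each call.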
